A study of Homo sapiens with 4 samples.

Results

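The major histocompatibility region on the short arm of chromosome 6 was followed in naïve human embryonic stem cells (ESCs) of the line Elf1 through its protein-coding genes. All protein-coding genes of GENCODE release 44 between 28.5 and 33.5 Mb of chromosome 6 in genome build hg38 were taken by position. The choice was made with earlier results of these data known. The window holds 183 such genes. Of these, 9 were set aside by name in the rule and 2 had no row in the count tables. This left 172 genes of the 19886 protein-coding genes and 60564 gene identifiers counted.

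The study sequenced total RNA, depleted of ribosomal RNA, after 2-D or 3-D growth, with 2 independent biological replicates per condition. Per the labels, the 2-D cells grew attached to plastic with a Matrigel coat, and per the study's methods the line was otherwise maintained on mouse embryonic feeder cells. For 3-D growth, single cells were enclosed in scaffolds that self-assembled from the polyethylene glycol polymers PEG-8-SH and PEG-8-Acr, and were kept there for 21 days. Both conditions shared the same ESC expansion medium, which per the study's methods held FGF2, CHIR99021, a MEK inhibitor and human LIF. Elf1 is a single line from 1 embryo, so the 4 libraries share 1 set of histocompatibility alleles, and the values describe this line only. RNA was pooled over all cells of a culture, so that fewer cells of a type and less RNA per cell cannot be told apart.

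This region is among the most gene-dense and most polymorphic stretches of the human genome. Class I molecules, made of a heavy chain and the light chain B2M, show peptides from inside the cell to T cells, and class II molecules, each made of an α and a β chain, show peptides taken up from outside. Embryonic stem cells are known for low class I and mostly absent class II on their surface. Between the class I and class II clusters lies class III, which holds complement genes, TNF and many housekeeping genes with no part in immunity. Because haplotypes of the region differ so widely between people, hg38 carries several of them as alternate contigs beside the sequence of chromosome 6.

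Short coding runs show whether a stretch of a gene of the region recurs unchanged in hg38. Each is 60 bases long and taken from the middle of the second coding exon, or of the first later one long enough. The runs are from hg38 and are written 5′ to 3′ on the coding strand. These were chosen to show the contrast between genes with exact copies and genes with differing ones. Runs of the chromatin genes EHMT2 (exon 2, chr6:31896926-31896985, minus strand) and RING1 (exon 3, chr6:33209676-33209735, plus strand) stood unchanged on 5 alternate contigs each, that of DAXX (exon 3, chr6:33321122-33321181, minus strand) on 4, and that of AGPAT1 (exon 3, chr6:32170974-32171033, minus strand) on 6.
EHMT2: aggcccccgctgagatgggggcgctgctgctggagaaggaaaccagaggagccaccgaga
RING1: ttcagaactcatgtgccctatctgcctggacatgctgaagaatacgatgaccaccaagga
DAXX: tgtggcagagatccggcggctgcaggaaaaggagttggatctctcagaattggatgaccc
AGPAT1: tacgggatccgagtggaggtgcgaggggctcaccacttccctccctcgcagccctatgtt

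A chain that binds peptide showed another picture. The run of HLA-DQB1 (exon 2, chr6:32664903-32664962, minus strand) was found unchanged on none. Differing counterparts of it lie on the COX, DBB, MANN, QBL and SSTO haplotype contigs, so the gene is not absent from them. It differed from the COX haplotype by 8 of 60 bases and from the DBB haplotype by 5. Capitals mark bases that differ. In the chromosome 6 sequence they mark every position at which any of the aligned haplotypes differs, and in the others each base that is not that of chromosome 6.
HLA-DQB1, chromosome 6: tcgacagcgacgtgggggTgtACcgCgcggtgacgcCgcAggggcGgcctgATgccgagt
HLA-DQB1, COX haplotype: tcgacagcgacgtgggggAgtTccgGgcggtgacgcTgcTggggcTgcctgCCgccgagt
HLA-DQB1, DBB haplotype: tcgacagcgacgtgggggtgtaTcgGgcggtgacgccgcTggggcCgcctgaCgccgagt

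Library totals were 33833778 and 30114220 counts for 2-D replicates 1 and 2, and 21154409 and 18276147 counts for 3-D. The 12 embryonic stem cell markers all exceeded 100 mean counts, while of 12 leukocyte markers 6 exceeded 3 counts in some library, with a highest mean of 29.25. The leukocyte list summed to between 3.403 and 4.233 CPM (read counts scaled to library size), with 3 genes tested and 0 called. Its members PTPRC, MS4A1 and CD3E had at most 1 count in any library. Of 6 endothelial markers 5 exceeded 3 counts in some library, 3 were tested and 0 called, with a highest mean of 3884. That list summed to 169.0 and 167.8 CPM in 2-D and 178.2 and 174.6 in 3-D. The fibroblast list had 6 of 8 genes tested and 3 called higher in 3-D (3 of 6 tested, where 4.54% of all tested genes were called higher), and summed to 538.2 and 529.8 CPM in 2-D and 547.4 and 596.9 in 3-D. The part of such cells in the results below was not tested.

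Few reads were assigned to the 172 genes kept. They held 2281 and 2698 counts in 2-D and 1878 and 1584 counts in 3-D, which is between 0.006742% and 0.008959% of a library. Over all libraries this was 8441 counts, against 12310 for the 9 genes of the window set aside by the rule. Of those 9, the highest mean was 3044 counts, and 4 had 0 counts in every library. The 107 protein-coding genes in the 5.0 Mb before the window, among them a large cluster of histone genes, held between 134637 and 264664 counts per library. The 63 genes in the 5.0 Mb after it held between 80249 and 146575. Of the 172 genes, 101 (58.72%) had 0 counts in every library, and 124 (72.09%) never exceeded 3 counts, the number that a count of 0 still allows. The share that never exceeded 3 counts was 13.08% before the window, 14.29% after it, 15.7% in the rest of chromosome 6 and 18.9% on other chromosomes. A count of 3 corresponds to between 0.0871 and 0.167 CPM in these libraries, so that levels under that were not detectable at this depth.

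**Figure D1:**
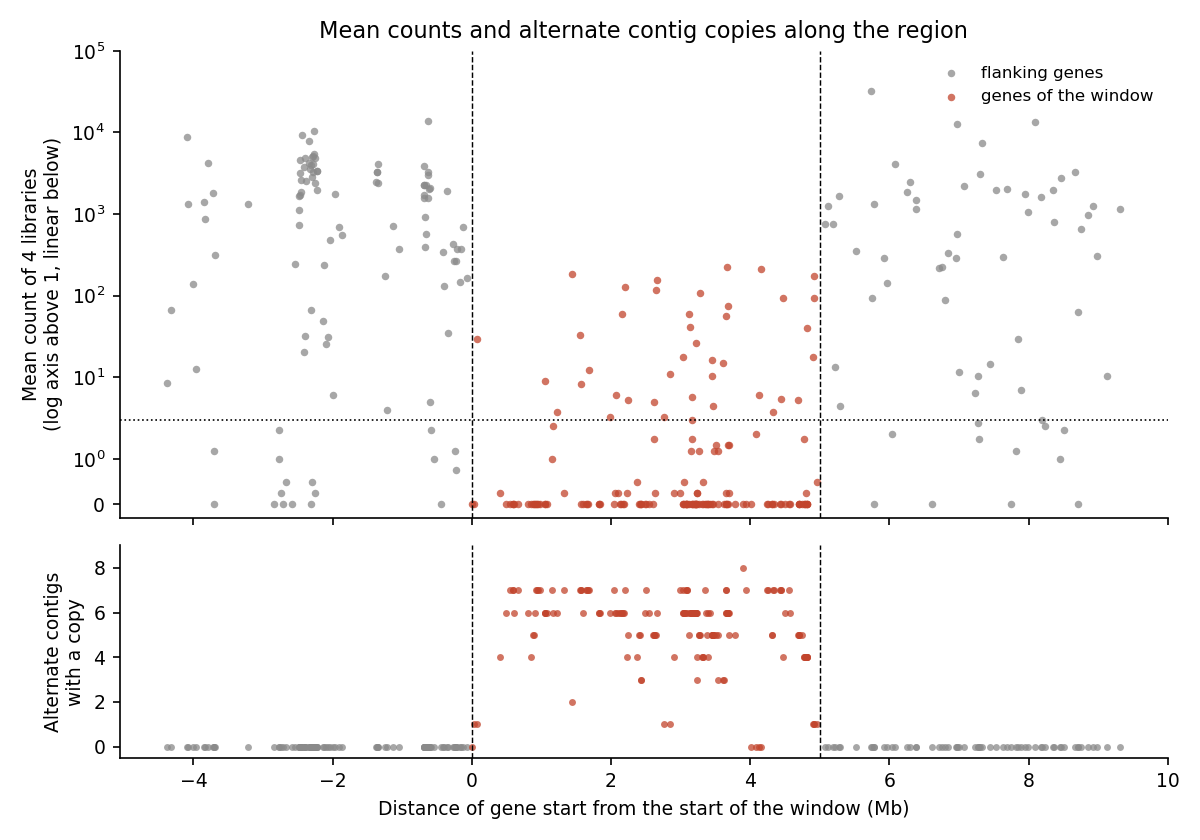
Mean count of the 4 libraries (upper panel, log axis above 1) and number of alternate contigs with a copy (lower panel) for each protein-coding gene, against the distance of its start from the start of the window in Mb. Grey points are the flanking genes and red points the 172 genes of the window, dashed lines are the window's ends and the dotted line is 3 counts. Among the 172 genes none exceeds a mean of 223.8 counts and most carry copies, while no flanking gene carries one. The 9 genes of the window set aside by the rule are not drawn.

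Among the 172 genes, low counts ran through the whole window. Of 24 genes in the extended class I part, which holds the olfactory receptors, 22 (91.67%) never exceeded 3 counts. The same was true of 30 of 46 class I genes (65.22%), 46 of 64 class III genes (71.88%), 14 of 20 class II genes (70.0%) and 12 of 18 genes of the extended class II part (66.67%). High mean counts were rare, and the highest were 29.25 in extended class I, 223.8 in class III and 211.5 in class II. The flanks reached 13900 before the window and 32280 after it.

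A copy was counted on an alternate contig where the longest transcript of a gene aligned over at least 80% of its length with at least 98% identity. By this measure 167 of the 172 genes had a copy on at least 1 alternate contig, with a median of 6, whereas no gene in the flanks had one. The 5 without were GPX6, at the window's edge, and HLA-DRB5, HLA-DRB1, HLA-DQA1 and HLA-DQB1, chains of the highly polymorphic DR and DQ molecules. Among the 158 genes with copies on 3 or more contigs, 120 (75.95%) never exceeded 3 counts, and the median of their mean counts was 0. Among the 9 with copies on 1 or 2, this held for 2 (22.22%), and among the 5 with none for 2.

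The same measure was taken over the genome outside the window. The 9 genes of the window set aside by the rule are in neither group. They had copies on 2 to 7 alternate contigs, with a median of 6, and 5 of them (55.56%) never exceeded 3 counts. Of 19105 other protein-coding genes with no copy on an alternate contig, 17.42% never exceeded 3 counts. Of 550 with 1 or 2 it was 58.91%, and of 50 with 3 or more it was so in 40. Whether the index used for mapping held the alternate contigs, how reads with several equal matches were treated and which strand setting the counting used are not given in the sources used here, and the part of the copies in the low counts was not tested.

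**Figure D2:**
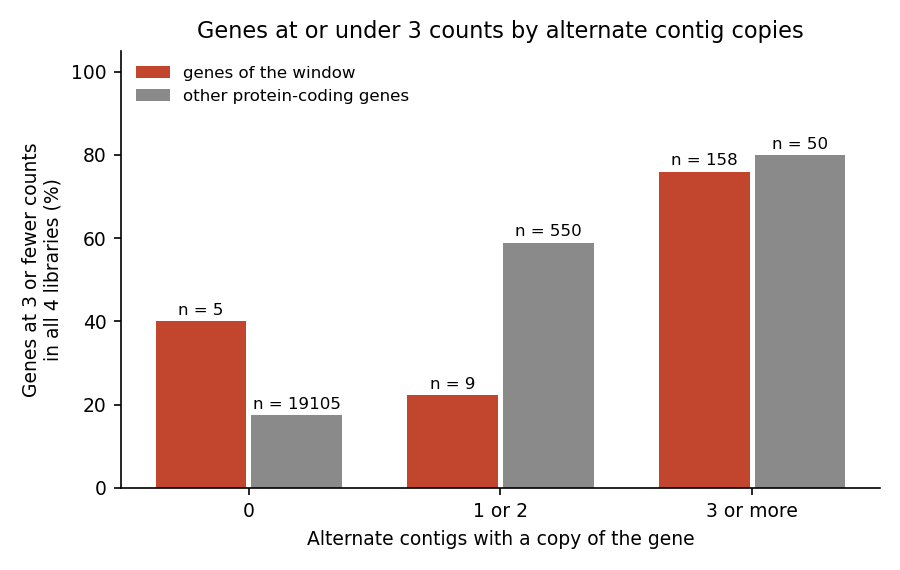
Percent of genes at 3 or fewer counts in all 4 libraries, by the number of alternate contigs with a copy, for genes of the window (red) and all other protein-coding genes (grey), with the number of genes above each bar. With 3 or more contigs the bars stand for 120 of 158 and 40 of 50 genes, and with none at 40.0% (5 genes) and 17.42%.

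A finer measure gave the share of a gene's exonic stretches of 150 bases that are found unchanged on an alternate contig of chromosome 6. All stretches were found in 102 genes, of which 84 (82.35%) never exceeded 3 counts. Between 90% and 100% were found in 39 genes, with 61.54% at 3 or fewer, and between 50% and 90% in 24 genes, with 58.33%. Under 50% were found in only 7 genes, among them GPX6, HLA-B, HLA-DRB5, HLA-DRB1, HLA-DQA1 and HLA-DQB1. In this group 2 genes (28.57%) never exceeded 3 counts. Such stretches were found on 8 of the 16 alternate contigs of chromosome 6.

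Among the class I chains, HLA-B had 10 and 18 counts in 2-D and 8 and 8 in 3-D, with 34.43% of its stretches on alternate contigs. HLA-C, another classical heavy chain, had 5, 2, 2 and 4 counts over 2-D replicates 1 and 2 and 3-D replicates 1 and 2, the order used for all sets of 4 counts. HLA-E, a ligand of receptors on natural killer cells, had 3, 3, 2 and 5 counts, and HLA-F had 5, 5, 4 and 1. HLA-G, known from the placenta, had 1 count in all, and the stress-induced ligands MICA and MICB had 1 each, all at or under the floor.

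HLA-B stood at 0.437 ± 0.208 CPM in 2-D and 0.418 ± 0.040 CPM in 3-D (SD, n = 2 each), and the conditions overlapped. Its log2 fold change of 3-D over 2-D was -0.05 ± 0.49 (SE), with an adjusted p of 0.972 in edgeR's quasi-likelihood test, so it was not called. It shares 47.26% of its exons with other genes. B2M on chromosome 15, the light chain of class I molecules, had 384, 378, 207 and 253 counts and a log2 fold change of 0.04 ± 0.13 (adjusted p 0.906 in edgeR). B2M has a copy on 1 alternate contig.

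Class II was represented almost by 1 chain. HLA-DQB1 (chr6:32659467-32668383), the β chain of HLA-DQ, had 270 and 259 counts in 2-D and 160 and 157 in 3-D, or 1.675 CPM per kb, and none (0.0%) of its stretches was found on an alternate contig. Its partner HLA-DQA1, the α chain, had 11 and 8 counts in 2-D and 4 and 1 in 3-D, at 0.03013 CPM per kb. HLA-DRB1 had 4, 2, 0 and 2 counts, and HLA-DMA, which helps peptides onto class II molecules, had 14, 2, 2 and 4. The 9 other class II chains, HLA-DRA, HLA-DRB5, HLA-DQA2, HLA-DQB2, HLA-DOB, HLA-DMB, HLA-DOA, HLA-DPA1 and HLA-DPB1, had 0 counts in every library.

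HLA-DQB1 stood at 8.12 ± 0.40 CPM in 2-D and 8.27 ± 0.69 CPM in 3-D, and the conditions overlapped. Its log2 fold change was 0.02 ± 0.11 with an adjusted p of 0.935 in edgeR, and with scaling by library size alone its sign turned, to -0.04. Of its exons, 4.924% lie on top of another gene. CD74 on chromosome 5, the invariant chain that travels with class II molecules, had 532, 425, 291 and 196 counts. CIITA on chromosome 16, the master regulator of class II genes, had 370, 310, 213 and 199. Neither was called, at log2 fold changes of -0.22 ± 0.11 (adjusted p 0.31 in edgeR) and 0.04 ± 0.10 (adjusted p 0.86).

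The genes for peptide loading in the region were scarce. TAP2, a subunit of the transporter that carries peptides into the endoplasmic reticulum, had 5, 4, 5 and 1 counts, the other subunit TAP1 had 0 in every library, and TAPBP (tapasin), which holds class I molecules to the transporter, had 1 count in all. None of the 3 passed the filter on low counts. TAPBPL, a relative of tapasin on chromosome 12, had 106, 83, 61 and 67 counts.

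Complement, TNF and heat shock genes were likewise at or near 0. C4A had 5 counts, all in 2-D replicate 2, C4B had 4, 0, 1 and 1, and C2 and CFB had 0. Since C4A and C4B are nearly identical, reads cannot be assigned to 1 of them with certainty. In the list of 8 genes of the TNF cluster and leukocytes, 7 were at 0 throughout and none exceeded 3 counts. Of the HSP70 chaperones, HSPA1B and HSPA1L were at 0 and HSPA1A, nearly identical to HSPA1B, had 2 counts in all, both in 2-D replicate 2. All 14 olfactory receptors listed, which serve the sense of smell, were at 0.

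Genes of the region, many but not all with housekeeping roles, were set beside a partner elsewhere in the genome. The partner was either a subunit of the same complex or a relative in the same family. The 22 pairs were chosen after the values of the region's genes had been seen, and are a description only. In all 22 pairs the partner was at the higher level per kb of exon, with a median of 9.05 CPM per kb for the partners and 0.06158 for the genes of the region. The region's genes ran from 0 to 307 counts in a library and the partners from 121 to 70595, the latter in HSPA8, set beside the HSP70 gene HSPA1A. None of the 22 partners has a copy on an alternate contig, which is also so for most protein-coding genes outside the window (19105 with none, 599 with 1 or more).

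EHMT2 encodes a methyltransferase of lysine 9 of histone H3 and had 0 counts in every library. EHMT1, which forms a complex with it, had 4959, 4317, 3135 and 2787. RING1 of Polycomb repressive complex 1 had 0 counts, against 2068, 1814, 1295 and 1112 for its paralog RNF2. GTF2H4, a subunit of the general transcription factor TFIIH, had 0 counts, where its fellow subunit GTF2H1 had between 820 and 1507. PFDN6 of the chaperone prefoldin, VPS52 of the GARP tethering complex and RPP21 of RNase P were at 0 as well, with their partners PFDN2, VPS53 and RPP30 between 485 and 2491. DAXX, VARS1 and BAG6 were among those with counts, and stayed below ATRX, LARS1 and GET4 per kb.

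**Figure D3:**
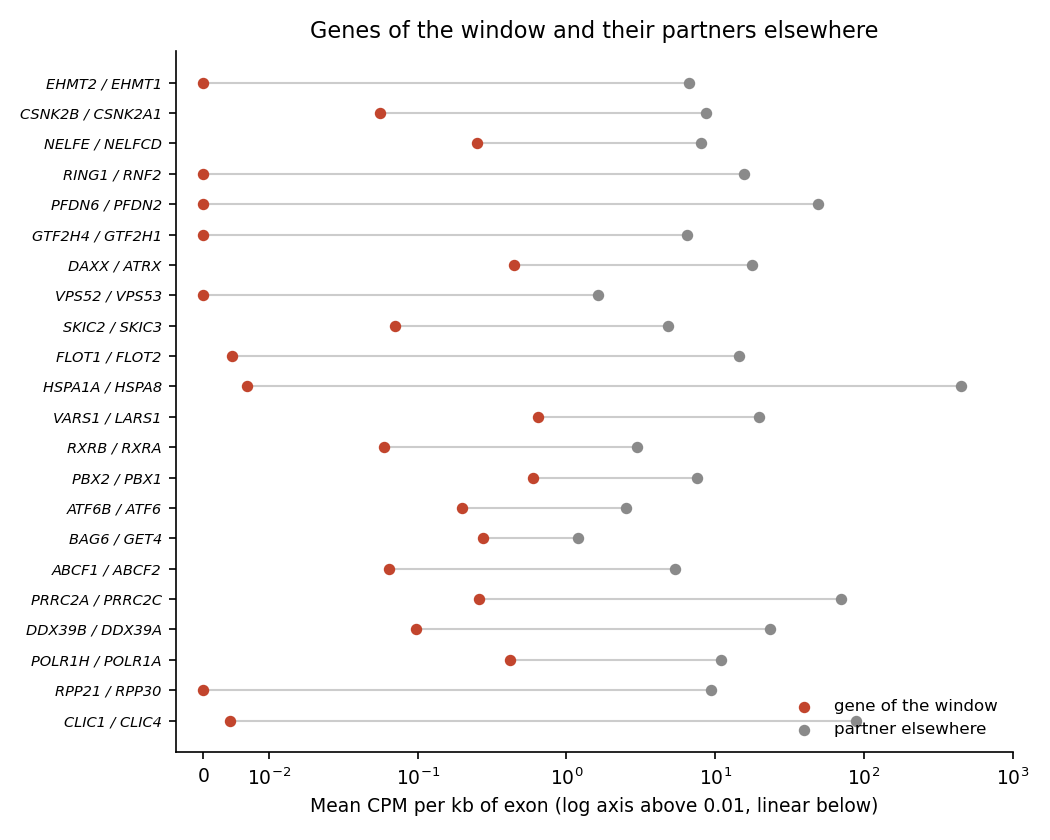
Mean level over the 4 libraries in CPM per kb of exon (log axis above 0.01, linear below) of 22 genes of the window (red) and their partners elsewhere in the genome (grey), each pair joined by a line. In every pair the grey point lies to the right, and 6 red points lie at 0.

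Of the 172 genes, 26 passed the filter on low counts and were tested between 3-D and 2-D grown cells. The other 146 did not pass it, and 101 of these had no count in any library. With no filter 71 genes of the region were tested and 14 called, and the share called over all genes in that fit is not given here. Of those tested, 6 of 26 were called at an adjusted p below 0.05, where 7.9% of all 22555 tested genes were called. Higher in 3-D were 5 of 26 (background 4.54%), among them MDC1, AGPAT1, ABCF1 and PPT2-EGFL8, and DAXX was lower (1 of 26, background 3.36%). The conditions did not overlap in 10 of the 26, a share below the 50.5% over all tested genes. The median log2 fold change was 0.14 over the 26 and 0.00 over all tested genes. Among the protein-coding genes before the window, which include a large cluster of histone genes, 25 of 86 tested were called (29.07%). After it 4 of 47 were called (8.511%), and in the rest of chromosome 6 8.712% of 528 tested. The share in the window (23.08%) lay between those of its flanks. The part of the histone genes in the share before the window was not tested.

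MDC1 (chr6:30699807-30717447), a scaffold protein that gathers repair factors at DNA breaks, had 122 and 126 counts in 2-D and 154 and 107 in 3-D. Scaled to depth, this was 3.82 ± 0.39 CPM in 2-D and 6.73 ± 1.08 CPM in 3-D (SD, n = 2), without overlap. Its log2 fold change was 0.83 ± 0.15 (SE), with an adjusted p of 0.005 in edgeR.

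DAXX (chr6:33318558-33323016), which deposits the histone variant H3.3 together with ATRX, had 66 and 71 counts in 2-D and 14 and 11 in 3-D. It stood at 2.11 ± 0.27 CPM in 2-D and 0.647 ± 0.048 CPM in 3-D, and was the only gene of the 26 called lower. The change was -1.69 ± 0.28 on the log2 scale with an adjusted p of 0.00257 in edgeR. ATRX on chromosome X, its partner, had 13608, 12346, 8648 and 7222 counts and was not called (adjusted p 0.419).

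PPT2-EGFL8 and AGPAT1 lie on opposite strands and overlap. PPT2-EGFL8 (chr6:32153845-32171978) is a transcript that reads from the thioesterase gene PPT2 into its neighbour EGFL8, and shares 75.02% of its exons with other genes. It had 13 and 13 counts in 2-D and 108 and 89 in 3-D, a log2 fold change of 3.67 ± 0.22 (adjusted p 1.55e-06 in edgeR), and of the 26 it rose most. PPT2 itself had 1 count in all and EGFL8 none. How reads in shared exons were assigned is not given in the sources used here.

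AGPAT1 (chr6:32168212-32178096), an enzyme of phosphatidic acid synthesis, was the most abundant of the 172 genes per kb, at 2.516 CPM per kb. It had 254 and 231 counts in 2-D and 222 and 188 in 3-D, or 7.44 ± 0.09 against 10.6 ± 0.22 CPM. Its log2 fold change was 0.52 ± 0.10 with an adjusted p of 0.00728 in edgeR. DESeq2 without independent filtering, which called 3.25% of all tested genes, gave it an adjusted p of 0.0883, and its adjusted p ran from 0.000387 to 0.0883 over the alternatives. Of its exons 30.5% are shared with other genes, and without strand its reads and those of PPT2-EGFL8 cannot be told apart where they overlap.

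ABCF1 (chr6:30571393-30597179), a regulator of translation initiation, rested on few counts, 3 and 2 in 2-D and 9 and 10 in 3-D. Given the totals this is a ratio of 6.444, with a 95% exact interval from 2.327 to 22.08 that covers counting error only. Both 2-D libraries were at or under 3 counts, so ABCF1 passed the filter on low counts only through 3-D, where it is high. With at least 10 counts required in every library it was not tested, and 5 of 20 genes of the region were called. The share called over all genes in that fit is not given here. ABCF1 is nonetheless part of the tallies of called genes given here. Its log2 fold change was 2.62 ± 0.62, with an adjusted p of 0.0218 in edgeR and 0.232 in DESeq2 without independent filtering. The call was also lost without 2-D replicate 1 (adjusted p 0.151), without 2-D replicate 2 (0.199) and without 3-D replicate 1 (0.0588), so that over the alternatives the adjusted p ran from 0.00611 to 0.232. Its exons overlap no other gene, while MDC1 shares 9.368% and DAXX 14.3% of theirs. MDC1, PPT2-EGFL8 and DAXX were called under all 13 alternatives that gave them a p.

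**Figure D4:**
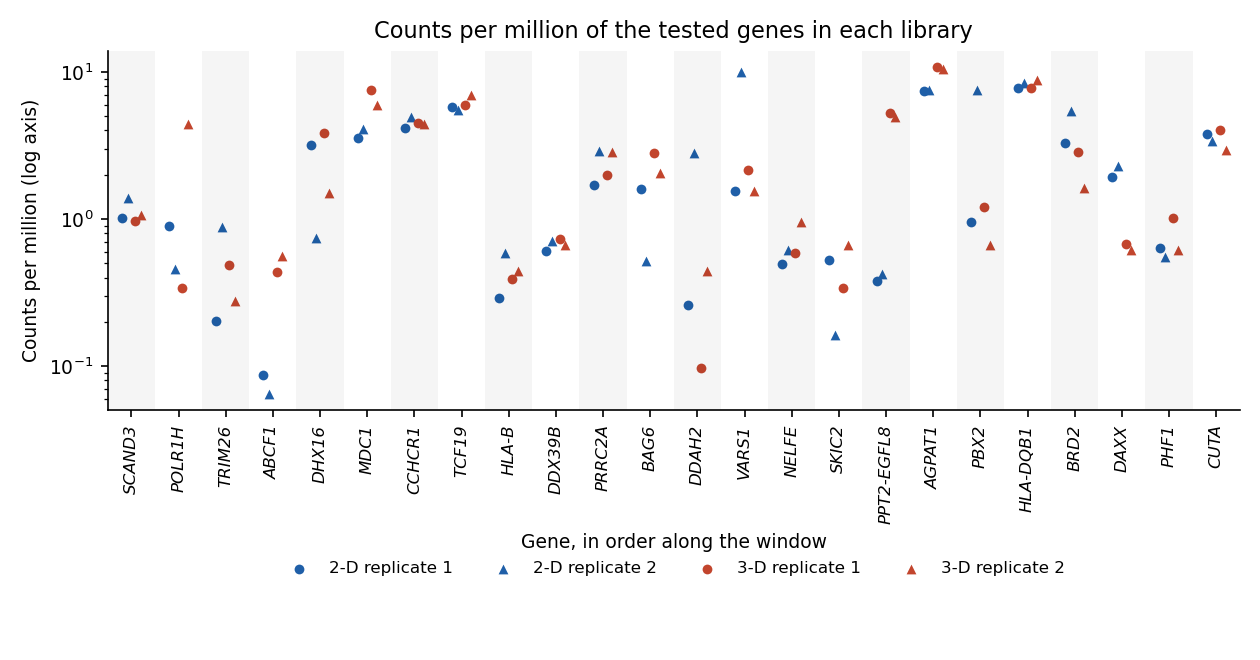
CPM of 24 of the 26 tested genes on a log axis in each library, in order along the window, with 2-D in blue, 3-D in red, circles for replicate 1 and triangles for replicate 2. DAXX falls from about 2.11 to 0.647 CPM and PPT2-EGFL8 rises from 0.3997 to 5.11, while in VARS1, PBX2 and DDAH2 the triangle of 2-D replicate 2 stands alone above the others.

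The other abundant genes did not pass the test. TCF19, a transcription factor of proliferating cells, had 198 and 171 counts in 2-D and 122 and 125 in 3-D, with a log2 fold change of 0.19 ± 0.13 (adjusted p 0.456 in edgeR). CCHCR1, a centrosomal protein, had 143, 152, 92 and 79 counts and a log2 fold change of -0.03 ± 0.15 (adjusted p 0.943). CUTA had 131, 105, 83 and 53 counts, with -0.04 ± 0.18 on the log2 scale (adjusted p 0.939 in edgeR). BRD2, a reader of acetylated histones that was named after its values were seen, had 114, 168, 59 and 29 counts and a log2 fold change of -0.93 ± 0.27. With an adjusted p of 0.0588 in edgeR it was just short of the threshold.

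Several genes of the region differed widely between replicates of a condition. VARS1, the valyl-tRNA synthetase, had 53 and 307 counts in 2-D and 44 and 28 in 3-D. PBX2, a homeodomain protein, had 33 and 232 in 2-D and 25 and 12 in 3-D, and DDAH2, of the dimethylarginine hydrolase family, had 9 and 87 in 2-D and 2 and 8 in 3-D. In all 3 genes 2-D replicate 2 stood alone. Their log2 fold changes were -1.60 ± 0.65 for VARS1, -2.11 ± 0.77 for PBX2 and -2.50 ± 0.99 for DDAH2, with adjusted p of 0.171, 0.127 and 0.162 in edgeR. Without 2-D replicate 2, the change of VARS1 turned to 0.28 (adjusted p 0.801) and that of PBX2 came to -0.003 (adjusted p 0.998), while DDAH2 no longer passed the filter. In contrast, without 2-D replicate 1 the changes were -2.41 for VARS1, -2.97 for PBX2 and -3.41 for DDAH2, and all 3 were called.

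In 2 further genes 1 library stood out, 3-D replicate 2 in POLR1H and, at the low end, 2-D replicate 2 in BAG6. POLR1H, a subunit of RNA polymerase I, had 31 and 14 counts in 2-D and 7 and 80 in 3-D, with a log2 fold change of 1.74 ± 0.72 (adjusted p 0.178 in edgeR) that became -1.001 without 3-D replicate 2. Of its exons 24.51% are shared with other genes. BAG6, which guides proteins to membranes and to degradation, had 55 and 16 counts in 2-D and 58 and 37 in 3-D. Its log2 fold change was 1.18 ± 0.37 (adjusted p 0.0761 in edgeR), against 2.23 without 2-D replicate 1 and 0.621 without 2-D replicate 2. Over the alternatives its adjusted p ran from 2.36e-06 to 0.771. Outside the rule for named genes and chosen after their values were seen, ATF6B had 3 and 1 counts in 2-D and 49 and 7 in 3-D, and STK19 had 0, 16, 0 and 2.

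The share of genes with such replicates was counted with a limit of 4 for the ratio of the higher to the lower replicate in CPM, a limit set after the values were seen. The ratio exceeded 4 in at least 1 condition in 6 of the 26 tested genes (23.08%), POLR1H, TRIM26, DHX16, DDAH2, VARS1 and PBX2. It did so in 161 of the 11842 tested genes of any region with mean counts in the same range, from 6.0 to 223.75 (1.36%), and in 0.767% of all tested genes. TRIM26, an E3 ubiquitin ligase, had 7 and 27 counts in 2-D and 10 and 5 in 3-D, and DHX16, an RNA helicase of splicing, had 110 and 23 in 2-D and 79 and 27 in 3-D. The reads behind these counts were not analysed here.

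Along the window the tested genes were spread unevenly, with 1 in extended class I, 9 in class I, 10 in class III, 2 in class II and 4 in extended class II. Called genes were 2 of 9 in class I (ABCF1 and MDC1), 2 of 10 in class III (PPT2-EGFL8 and AGPAT1) and 2 of 4 in extended class II (DAXX among them), where 7.9% of all tested genes and 11.35% of the tested protein-coding genes of chromosome 6 outside the window were called. The median log2 fold change was -0.24 in extended class I (SCAND3 alone), 0.33 in class I, 0.27 in class III, -0.46 in class II and 0.22 in extended class II. Over the 661 tested protein-coding genes of chromosome 6 outside the window it was -0.01.

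**Figure D5:**
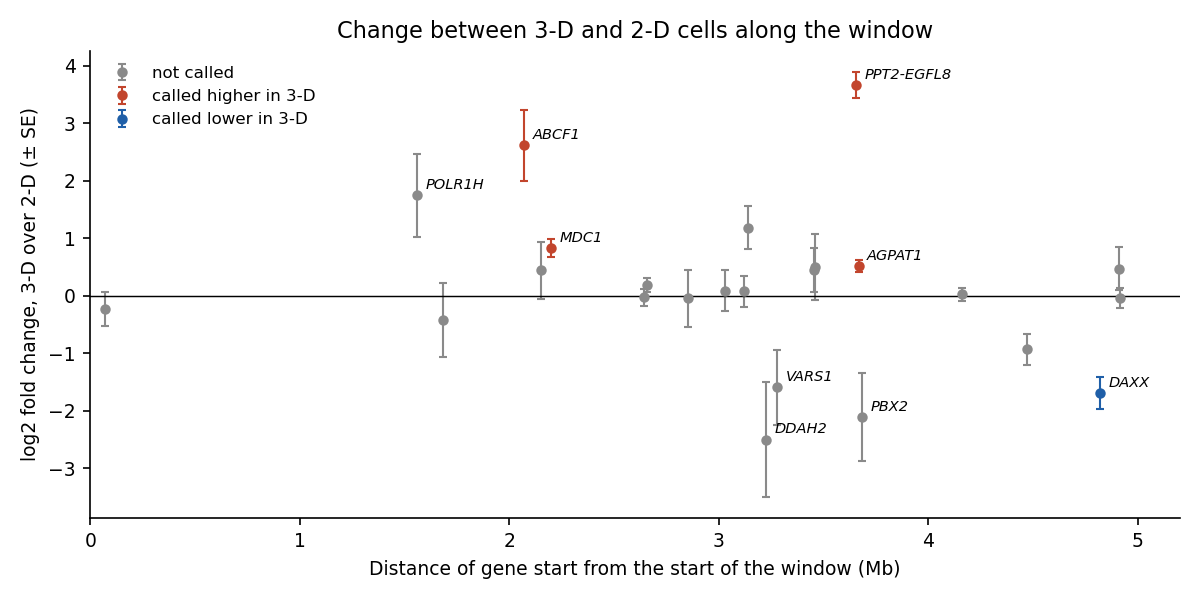
log2 fold change of 3-D over 2-D (± SE) of 24 of the 26 tested genes against the distance of the gene start from the start of the window in Mb, with genes called higher in red, lower in blue and not called in grey. PPT2-EGFL8 lies highest at 3.67, DAXX is at -1.69, and the widest error bars belong to DDAH2 (SE 0.99) and PBX2 (SE 0.77).

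Set against copies, 4 genes with copies on 3 or more contigs were called higher and 1 lower, of 19 tested, and of the 6 tested with copies on 1 or 2 contigs 1 was called. HLA-DQB1, the only tested gene with none, was not. Called were thus 26.32% of those with 3 or more and 16.67% of those with 1 or 2, against 7.9% of all tested genes. Among other protein-coding genes 9.872% of those tested with no copy were called, 16.25% with 1 or 2, and 3 of 6 with 3 or more. Counts of this size give no order between these groups.

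By role, the list of chromatin and transcription genes had 10 of 13 genes above 3 counts in some library, the most of any list in the region, and 8 tested, of which MDC1 rose and DAXX fell. Of 19 genes for RNA and protein quality control, 9 exceeded 3 counts and 8 were tested. Of these ABCF1 rose (12.5% called), which passed the filter only through 3-D. Of 13 genes for adhesion, signaling and matrix, 4 exceeded 3 counts and 1 was tested. Of 16 TRIM and zinc finger genes 4 exceeded 3 counts, and TRIM26 and POLR1H were tested but not called. Of 14 epidermal and secreted genes 2 exceeded 3 counts, and of these CCHCR1 was tested.

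Outside the window, most genes listed for the pathway had higher counts. The median of their mean counts was 323.2, though 1 never exceeded 3 counts. Of 24 antigen presentation genes, 20 were tested and 3 were called (3 of 20, background 7.9%), all higher in 3-D (background 4.54%). These were CALR (32803, 28964, 22383 and 18460 counts), CANX (35851, 32629, 23674 and 20171) and PDIA3 (19205, 17137, 12497 and 10742), chaperones that fold class I chains among many other proteins in the endoplasmic reticulum. Their log2 fold changes were small, 0.16 ± 0.03 for CALR, 0.12 ± 0.03 for CANX and 0.12 ± 0.03 for PDIA3, with adjusted p of 0.0103, 0.0329 and 0.0299 in edgeR. With scaling by library size alone, and also without 2-D replicate 2, 0 of the list were called. The median of the 20 was 0.02.

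Interferons raise class I levels in many cells, so genes of that response were listed too. Of 37, 29 were tested and 2 were called (6.897%, background 7.9%). IFITM3, which blocks entry of viruses, had 7157 and 6305 counts in 2-D and 5525 and 4782 in 3-D, with a log2 fold change of 0.38 ± 0.03 (adjusted p 1.41e-05 in edgeR). Its relative IFITM2, close enough in sequence that reads may be shared between them, had 413 and 347 in 2-D and 287 and 279 in 3-D, with 0.34 ± 0.09 (adjusted p 0.0394 in edgeR). Without 2-D replicate 2, 1 of the list was called, and without 3-D replicate 1, 4 were. IRF1, which acts upstream of class I genes, had a log2 fold change of 0.00 ± 0.13 and was not called.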

How the data were processed

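Total RNA of Elf1 cells was sequenced by the authors with paired ends after depletion of ribosomal RNA. Per the study's methods and the submitters' processing notes, reads were trimmed with Trim Galore 0.6.3, mapped to hg38 with HISAT2 2.1.0 and assigned to genes with featureCounts 1.6.4. The counts deposited are whole reads for each gene in each library, with no normalization. The deposited table of normalized values, with the authors' log2 fold changes and p-values from DESeq2, was not used.

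Members and lists were chosen with earlier results of these data known. GENCODE release 44 gave names, positions and exon lengths for 60295 of 60564 identifiers. Per the study's methods the authors counted on an earlier GENCODE release, so membership, CPM per kb and shared exons rest on other gene models than the counts. Transcripts were aligned to hg38 with alternate contigs by minimap2 2.31-r1302. The counts were fitted with edgeR 4.0.16 in R 4.3.3 (TMM, its filter on low counts, quasi-likelihood test in legacy mode, condition as the only term), and p was adjusted by Benjamini-Hochberg over 22555 genes. Standard errors were derived by dividing each absolute log2 change by the root of its F statistic. CPM values are TMM-normalized, and CPM per kb uses the summed length of a gene's exons. Common BCV was 5.097%. Replicates differed by more than sampling noise (chi-square over df 2.451 in 2-D and 4.394 in 3-D), so each was kept. The fit was also run on simulated data, with changes only in genes of higher counts and the same spread for every gene. That run does not cover the low counts and wide replicate differences of many genes of the region.

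Named genes are the HLA, peptide loading, complement and HSP70 lists, called genes, the 10 with the highest CPM per kb, the 5 not called with the largest change, and genes whose call changed under DESeq2. Outside the region they are the called genes of 2 lists. B2M, CD74, CIITA, TAPBPL, IRF1, the partners, SCAND3, BRD2, TRIM26, DHX16, ATF6B and STK19 were named after their values were seen. Some genes are not reported here. Alternatives were DESeq2 1.42.0, other size factors, other filters, a replicate block, length and GC offsets, thinned 2-D libraries, each library left out and a looser definition of a copy. DESeq2 without independent filtering was added after seeing the data. The replicate numbers are shared between conditions, but the labels do not say that they pair cultures. Tables and figures were made with Python 3.11.15, pandas 2.3.3 and matplotlib 3.10.9.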

Additional observations from a re-analysis of the deposited data

How the results depend on the processing

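Of the 26 tested genes of the region, 6 were called. This count was 14 with no filter on low counts (71 tested), and between 6 and 13 with 1 library left out, 13 without 2-D replicate 1 and 10 without 3-D replicate 1. The number higher, 5, was 3 in DESeq2 without independent filtering, 9 with no filter and between 5 and 8 with 1 library left out. The number lower, 1, was 2 with library size only and with thinned 2-D libraries, 5 with no filter and between 1 and 5 with 1 library left out. Apart from DESeq2 without independent filtering (3.25%), the share of all genes called under each alternative is not given here. These counts thus do not show whether the region moved apart from other genes. The causes were not tested, and a condition left with 1 library is assumed to vary like the other. DESeq2 with its default filter gave no adjusted p to any tested gene of the region, and 8 had an unadjusted p below 0.05, against 13 in edgeR.

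With the replicate block, 11 were called, 5 of them lower, and 12 with the replicate block and length and GC offsets, 5 of them lower. The share called over all genes in these fits is not given here either. The numbers do not pair the samples by their labels, and replicate differences of the conditions correlated at -0.007919.

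The 3 antigen presentation genes called became 0 with library size only and between 0 and 4 with 1 library left out. The 2 interferon genes became 1 in DESeq2, in DESeq2 without independent filtering and with library size only, and between 1 and 4 with 1 library left out. With at least 100 mean counts, the median log2 fold change was -0.539 in class III (2 genes), and sub-regions left with fewer than 2 genes gave no median. Signs turned for CCHCR1 (0.022 thinned) and HLA-DQB1 (-0.04 with library size only). With 1 library left out, log2 fold changes ran from -1.001 to 2.691 for POLR1H, -2.414 to 0.276 for VARS1, -2.967 to -0.003 for PBX2, -0.151 to 0.097 for CCHCR1, -0.484 to 0.052 for HLA-B, -0.058 to 0.111 for HLA-DQB1 and -0.288 to 0.162 for CUTA. The number of genes with a copy stayed at 167 under the looser definition. Of the 172 genes, 146 did not pass the filter on low counts.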
